A study of Mus musculus with 12 samples.

Results

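The genes described here bind, make, break down or respond to retinoic acid. Their names were listed with earlier results of these data in view, and those with a row in the deposited table were selected on their measured level, since the table keeps genes with at least 1 CPM (a gene's reads scaled to a common library total) in all libraries. Of the 9 names, 6 had a row among the 12591 genes: the binding proteins Crabp1 and Crabp2, the receptors Rara and Rarg, and the enzymes Dhrs3 and Cyp26b1. The other 3, the receptor Rarb, the retinol importer Stra6 and the enzyme Aldh1a1, had no row and have no value here. Being above 1 CPM is therefore no finding about the 6 genes. The member nearest to this limit was Cyp26b1, with 118 reads in its lowest library, whereas the 3 names without a row have no level to set beside it.

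The libraries came from fibroblasts of C57 PER2::LUC mouse embryos, an immortalized line that carries a fusion of the clock protein PER2 with luciferase. Each of the 4 groups had 3 dishes, grown to confluence and lysed 24 h after the change of medium. The groups were CTL (3.3 mM HCl alone), DZ (10 μM Deazaneplanocin A, an inhibitor of adenosylhomocysteinase), Adenine (1 mM) and SAM (1 mM S-adenosylmethionine), and the treated dishes contained the same 3.3 mM HCl. The dishes are replicate cultures of a single cell line, so the p-values measure the spread between dishes. The design asks whether SAM, adenine and DZ change gene expression alike.

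Retinoic acid is made from retinol (vitamin A). Retinol dehydrogenases such as RDH10 oxidize retinol to retinal, DHRS3 reduces retinal back to retinol, and ALDH1A enzymes oxidize retinal to retinoic acid. Inside the cell the acid is carried by CRABP1 and CRABP2, of which CRABP2 is known to pass it on to nuclear receptors, and CYP26 enzymes break it down. The receptors RARα, RARβ and RARγ pair with RXR and bind direct repeats of a short motif in DNA. Fibroblasts of the embryo are a classical target of retinoic acid, which patterns limb, face and trunk.

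Between 45649534 and 56789090 reads per library fell on the listed genes, and the 6 members held between 118 and 13830 reads each. Of 13 fibroblast markers, 11 were in the table, while Dcn and Lum were not. Their summed level was 23210 to 23700 CPM in CTL, 29230 to 29910 in DZ, 26500 to 28970 in Adenine and 17570 to 19110 in SAM. The lower sum in SAM came from Fn1, the most abundant of them, whose mean was 13.56 log2 CPM in CTL and 11.99 in SAM, while the means of the other 10 were higher in SAM than in CTL. None of the listed markers of epithelium, endothelium, skeletal muscle or pluripotent cells was in the table, and only Cd68 of 6 leukocyte markers and Fabp4 of 4 adipocyte markers were. With scaling by plain read totals, the all-gene median of the log2 fold changes under SAM moved from -0.015 to 0.11, and 61.2% in place of 48.5% of the calls were higher, so small changes under SAM depend on the scaling. The changes given refer to the scaling of the deposited values. In bulk RNA, fewer cells of a type and less RNA per cell cannot be told apart.

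The promoters of Crabp1 and Dhrs3 are shown because these were the members that were higher than CTL in all 3 treatments, and a stretch of the Rarb promoter because it holds the receptor's own binding motif. RefSeq start sites (GRCm38.p6, whereas the expression table was made on GRCm39) gave 18 windows of 300 bases for 8 of the 9 names. Crabp2 was not matched. The 250 bases before the start of Crabp1 lie at chr9:54764498-54764747 on the plus strand and those before the first listed start of Dhrs3 at chr4:144892577-144892826 on the plus strand, with CG dinucleotides in capitals. The 77 bases of Rarb lie at chr14:16575483-16575559 on the minus strand, from 83 to 7 bases before the start, and the capitals mark the pair of core motifs that form its repeat. A further core motif at the first bases of the stretch is in lower case.
Crabp1: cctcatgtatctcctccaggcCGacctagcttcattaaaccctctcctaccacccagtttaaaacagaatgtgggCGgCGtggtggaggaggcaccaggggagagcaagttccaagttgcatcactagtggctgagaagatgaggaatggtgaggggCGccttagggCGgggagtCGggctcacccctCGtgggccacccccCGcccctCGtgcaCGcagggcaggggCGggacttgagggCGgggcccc
Dhrs3: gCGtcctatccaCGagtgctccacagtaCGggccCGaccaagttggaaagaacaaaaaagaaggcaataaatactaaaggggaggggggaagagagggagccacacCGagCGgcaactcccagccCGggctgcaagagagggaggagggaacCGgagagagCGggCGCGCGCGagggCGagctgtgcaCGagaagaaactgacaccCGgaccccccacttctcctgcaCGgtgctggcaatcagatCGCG
Rarb: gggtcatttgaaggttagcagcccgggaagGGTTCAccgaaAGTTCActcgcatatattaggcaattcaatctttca
The core motif searched, on both strands and with overlaps allowed, was AGGTCA or AGTTCA or GGGTCA or GGTTCA. Direct repeats of it with spacers of 1, 2 or 5 bases are called DR1, DR2 and DR5. The Rarb window held a DR5, a repeat found in 0.0974% of the 32851 windows of all genes. None of the other 17 windows held a DR5, and none of the 18 held a DR1 or DR2, which occurred in 0.222% and 0.268% of all windows. The windows of Crabp1 and Dhrs3 also held no single core motif, which 43.7% of all windows held. The printed stretch of Crabp1 has 12 CG dinucleotides and that of Dhrs3 has 19, against a median of 6 over all windows. Of all windows, 66.5% had fewer than Crabp1 and 80.3% had fewer than Dhrs3. A match is a description of letters, and no match says only that these letters are not in this window.

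Crabp1 (chr9:54671171-54680403 in GRCm39), which holds retinoic acid in the cytoplasm, was the member that differed most between groups. Its 3 CTL libraries were at 4.44, 4.16 and 4.34 log2 CPM and its 3 DZ libraries at 5.47, 5.54 and 5.44. The Adenine libraries were at 7.31, 7.23 and 7.21 and the SAM libraries at 7.86, 7.91 and 7.998. Every DZ library lay above every CTL library, every Adenine library above every DZ library, and every SAM library above every Adenine library. Calls were made with limma at a false discovery rate (FDR) under 0.01, with p-values adjusted over all genes by the Benjamini-Hochberg method. Crabp1 rose 2.25-fold under DZ, or by 1.17 on the log2 scale (standard error 0.058, limma adjusted p = 4.43e-10). Under adenine it rose 7.67-fold, by 2.94 on the log2 scale (standard error 0.058, limma adjusted p = 9.97e-15), and 10 of the 12591 genes had a higher fold change. Under SAM it was 12.2-fold higher than in CTL, a log2 difference of 3.61 (standard error 0.058). This was the second highest rise among all genes, while 9 genes had a larger difference in either direction. This value was known when the genes were named, so it is a description without a test. The DZ and adenine values use the same CTL libraries, so their p-values are not independent of that choice. DZ differed from Adenine by -1.77 on the log2 scale (limma adjusted p = 1.03e-12). SAM lay 0.67 above Adenine and 2.44 above DZ, again as a description. Leaving out any single library kept the log2 fold change between 1.09 and 1.23 under DZ and between 2.86 and 3.00 under adenine.

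**Figure D1:**
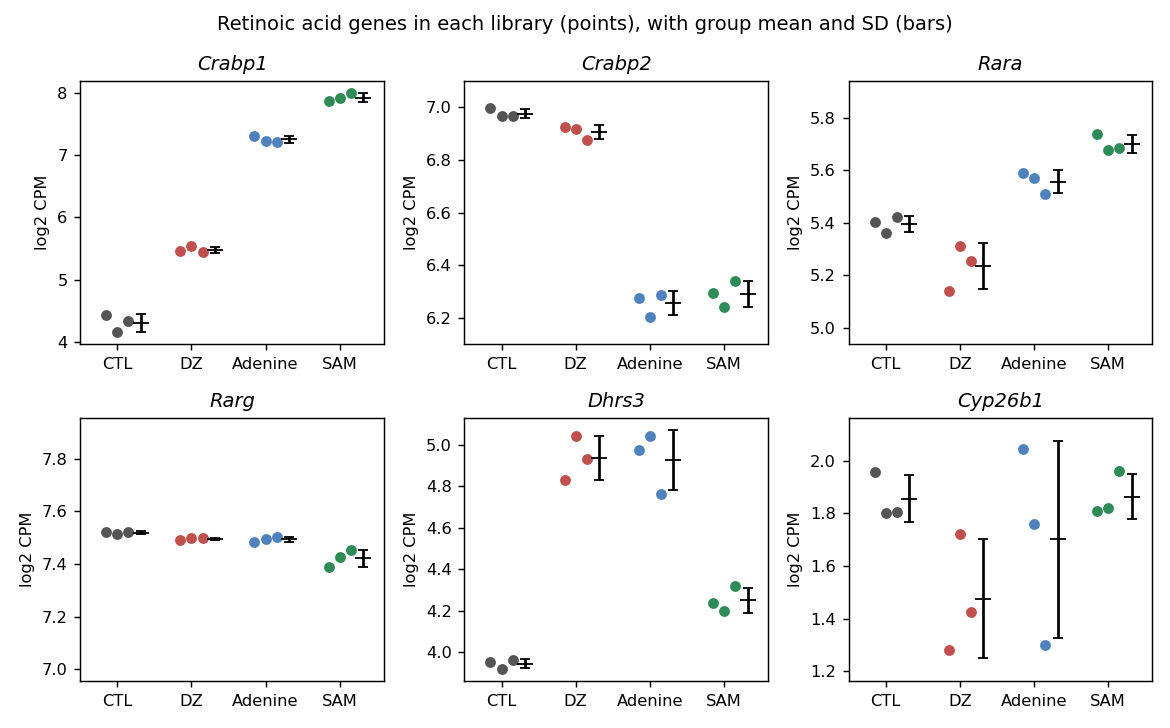
Deposited log2 CPM of the 6 genes in each of the 12 libraries (points, 3 per group) with the group mean and SD (bars). The y axes differ between panels and do not start at 0. Crabp1 steps up from 4.31 in CTL to 7.92 in SAM, while Crabp2 steps down under adenine and SAM.

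Crabp2 (chr3:87855973-87860683), the carrier that hands retinoic acid to the receptors, went the other way under adenine and SAM. It was at 6.996, 6.97 and 6.97 log2 CPM in CTL and at 6.93, 6.92 and 6.87 in DZ. It was at 6.28, 6.20 and 6.29 in Adenine and at 6.30, 6.24 and 6.34 in SAM, all below every CTL and DZ library. Crabp2 fell by 0.72 on the log2 scale under adenine (standard error 0.034, limma adjusted p = 3.01e-11) and by 0.68 under SAM (standard error 0.034, limma adjusted p = 3.71e-11), to 0.607 and 0.622 of the CTL level. Its difference under DZ was -0.07 (95% confidence interval -0.14 to 0.0015, limma adjusted p = 0.0857) and was not called, and DZ and Adenine differed by 0.65 (limma adjusted p = 1.3e-10). SAM and Adenine differed by 0.036 (95% confidence interval -0.036 to 0.11, limma adjusted p = 0.382), which was not called. The Adenine and SAM libraries of Crabp2 overlapped, whereas those of Crabp1 did not.

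The balance of the carrier mRNAs therefore differed between groups. Per length of the canonical transcript, in RPKM (reads per kilobase of transcript in a library scaled like the CPM values), Crabp1 was at 24.5 ± 2.38 (SD, n = 3) in CTL, 55.1 ± 1.89 in DZ, 188 ± 6.63 in Adenine and 299.5 ± 14.4 in SAM. Crabp2 was at 135 ± 1.61, 129 ± 2.45, 82.1 ± 2.54 and 84.2 ± 2.86 RPKM in the same order. The ratio of Crabp1 to Crabp2 on this scale was 0.181 ± 0.016 (SD, n = 3) in CTL, 0.428 ± 0.0124 in DZ, 2.29 ± 0.0935 in Adenine and 3.56 ± 0.141 in SAM. Their sum was 156 to 164 RPKM in CTL, 180 to 187 in DZ, 264 to 279 in Adenine and 371 to 402 in SAM. Neither the ratios nor the sums of the 4 groups overlapped. The SAM ratio and sum include Crabp1 under SAM, which was known when the genes were named, so they are a description without a test. Crabp2 was the higher of the pair in every CTL and DZ library, and Crabp1 in every Adenine and SAM library.

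**Figure D2:**
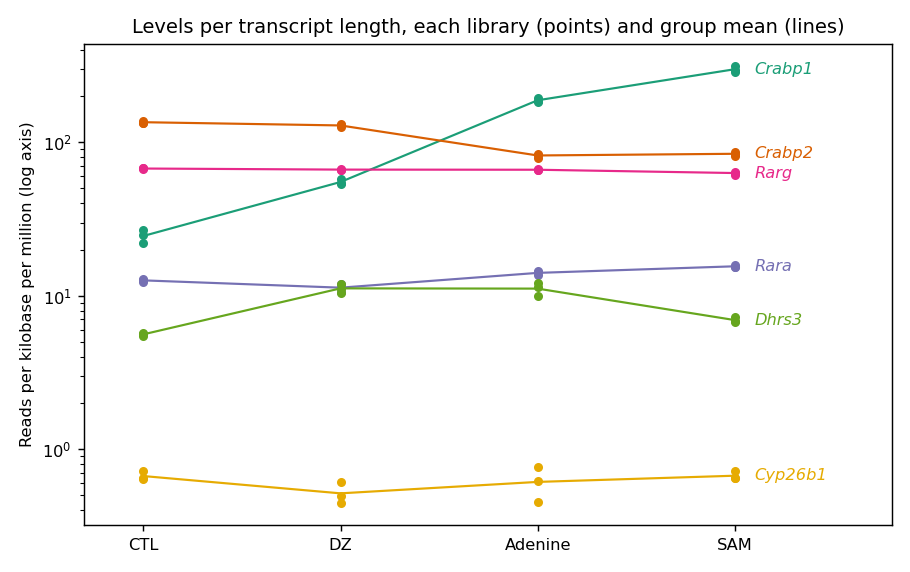
RPKM of the 6 genes on a log axis, by group, with each library as a point and the group means joined by lines. Crabp1 passes from below Rarg in CTL (24.5) to the top in Adenine (188) and SAM (299.5), and Cyp26b1 stays under 1 in every library.

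The receptors moved little. Rarg (chr15:102143373-102165952, minus strand), which encodes RARγ, was the most even member. It was at 7.52, 7.52 and 7.52 log2 CPM in CTL, at 7.49, 7.50 and 7.50 in DZ, at 7.48, 7.50 and 7.50 in Adenine and at 7.39, 7.43 and 7.45 in SAM. Its log2 fold change was -0.023 under DZ (95% confidence interval -0.076 to 0.03, limma adjusted p = 0.446) and -0.026 under adenine (-0.079 to 0.027, limma adjusted p = 0.364), neither of them called. Under SAM it fell by 0.098 (standard error 0.025, limma adjusted p = 0.00226), but the value was 0.024 with plain read totals and 0.002 with quantile normalization. That call was also lost in a separate model of the 2 groups and without SAM replicate 1 (-0.081). The sign of the Rarg value under DZ also turned with plain read totals, and under adenine with plain read totals and quantile normalization.

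Rara (chr11:98818612-98865768, plus strand), which encodes RARα, was at 5.40, 5.36 and 5.42 log2 CPM in CTL and at 5.14, 5.31 and 5.25 in DZ. It was at 5.59, 5.57 and 5.51 in Adenine and at 5.74, 5.68 and 5.69 in SAM. The DZ libraries lay below every CTL library, and the Adenine and SAM libraries above. Rara rose by 0.30 under SAM (standard error 0.046, limma adjusted p = 1.81e-05), a 1.24-fold change. Under adenine its log2 fold change was 0.16 (standard error 0.046, limma adjusted p = 0.00515) and under DZ -0.16 (standard error 0.046, limma adjusted p = 0.00754), both called but close to the threshold. The call under DZ was lost without DZ replicate 1 (-0.11) or 3 (-0.17) and without CTL replicate 1 (-0.15), 2 (-0.18) or 3 (-0.15), as well as without a variance trend, with plain read totals and in a separate model. The call under adenine was lost without Adenine replicate 1 (0.14) or 2 (0.15), without CTL replicate 1 (0.17) or 2 (0.14), and with median centring or quantile normalization. Tested directly, Rara was 0.46 higher under SAM than under DZ (limma adjusted p = 1.65e-07) and 0.32 lower under DZ than under adenine (-0.32, limma adjusted p = 1.25e-05). The SAM and Adenine groups differed by 0.14 (limma adjusted p = 0.0153), which was not called here but was with median centring, plain read totals or voom.

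Together the 2 receptors were at 79.5 to 80.3 RPKM in CTL, 76.7 to 78.3 in DZ, 80.2 to 80.6 in Adenine and 77.6 to 79.8 in SAM. Rara made up 15.7% ± 0.255 (SD, n = 3) of this sum in CTL, 14.5% ± 0.737 in DZ, 17.5% ± 0.513 in Adenine and 19.8% ± 0.704 in SAM. The shares in Adenine and SAM lay above all those of CTL and DZ, and all the DZ shares lay below the lowest CTL share of 15.5%. The size of the shares rests on the canonical transcript length taken for each gene. The lower DZ share goes with the Rara value under DZ, whose call was lost in the fits named above.

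Dhrs3 (chr4:144619245-144654779), the retinal reductase that limits retinoic acid formation, was at 3.95, 3.92 and 3.96 log2 CPM in CTL. It was at 4.83, 5.04 and 4.93 in DZ, at 4.97, 5.04 and 4.76 in Adenine, and at 4.24, 4.20 and 4.32 in SAM. All treated libraries were above CTL, and the SAM libraries were below all those of DZ and Adenine. Dhrs3 rose 1.99-fold under DZ, by 0.99 on the log2 scale (standard error 0.071, limma adjusted p = 1.92e-08), and 1.98-fold under adenine, by 0.98 (standard error 0.071, limma adjusted p = 5.38e-09). Under SAM it rose by 0.31 (standard error 0.071, limma adjusted p = 0.00101), a call lost with quantile normalization (0.21). Tested directly, the value under SAM was 0.68 below that under adenine (-0.68, limma adjusted p = 1.44e-06) and 0.68 below that under DZ (-0.68, limma adjusted p = 2.99e-07). Both of these SAM calls were lost with a required log2 fold change of 0.5. DZ and Adenine differed by 0.0075 (95% confidence interval -0.14 to 0.16, limma adjusted p = 0.929), which was not called. Among the treatments, Dhrs3 was thus lowest under SAM, where Crabp1 was highest, but both genes were lowest in CTL.

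Cyp26b1 (chr6:84548396-84570890, minus strand), an enzyme that degrades retinoic acid, was the least expressed member, at 0.445 to 0.76 RPKM and with 118 to 222 reads per library. It was at 1.96, 1.80 and 1.81 log2 CPM in CTL and at 1.28, 1.72 and 1.42 in DZ. It was at 2.04, 1.76 and 1.30 in Adenine and at 1.81, 1.82 and 1.96 in SAM. The DZ libraries were all below CTL, and the Adenine libraries spread over the whole range. Its log2 fold change was -0.38 under DZ (95% confidence interval -0.73 to -0.031, limma adjusted p = 0.0582), -0.16 under adenine (-0.504 to 0.19, limma adjusted p = 0.41) and 0.0077 under SAM (-0.34 to 0.36, limma adjusted p = 0.968), and no comparison was called. Without Adenine replicate 3 the value under adenine was 0.045. The standard error of 0.16 was over that of every other member, so changes of the size of those of Rara were not detectable for Cyp26b1.

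**Figure D3:**
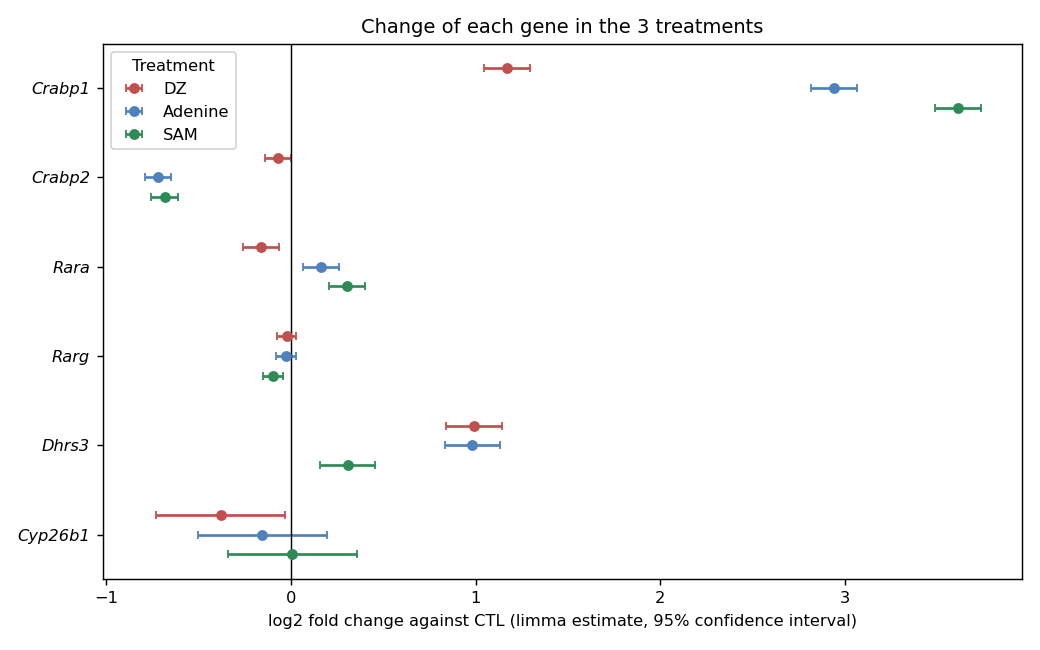
Log2 fold change of each gene against CTL with its 95% confidence interval from the limma model, by treatment. Crabp1 and Dhrs3 lie right of 0 in all 3 treatments, Crabp2 lies left of 0 under adenine (-0.72) and SAM (-0.68), and the Cyp26b1 intervals are the widest.

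In order of level per length, CTL libraries had Crabp2 (135 RPKM), Rarg (67.5), Crabp1 (24.5), Rara (12.6), Dhrs3 (5.6) and Cyp26b1 (0.668), and no neighbours in this order overlapped. The order in DZ was the same, but there Rara (11.3 ± 0.688 RPKM, SD, n = 3) and Dhrs3 (11.2 ± 0.822) overlapped. In Adenine and SAM, Crabp1 came first, followed by Crabp2, Rarg, Rara, Dhrs3 and Cyp26b1, with no overlap between neighbours.

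Counted over the 6 genes, 3 were called under DZ (2 higher and 1 lower), against 45.9% of all genes tested (22.6% higher and 23.4% lower). Adenine gave 4 calls, 3 higher and 1 lower, against 61.6% of all genes (30.6% higher and 31% lower). SAM gave 4 calls among the 5 members tested, 2 higher and 2 lower, beside Crabp1 as a description, against 69.3% of all genes (33.7% higher and 35.7% lower). These shares are near those of all genes, and with 6 members nothing is read from them. Directly compared, and again with Crabp1 untested where SAM was involved, SAM and Adenine differed in 1 of 5 members (42.7% of all genes), DZ and Adenine in 3 of 6 (64.3%) and SAM and DZ in 3 of 5 (69%). The median log2 fold change of the members was -0.047 under DZ, 0.068 under adenine and 0.16 under SAM, beside -0.0057, -0.003 and -0.015 over all genes. The 3 comparisons with CTL share the CTL libraries.

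The other genes of the pathway are given from 4 lists, which were also written with earlier results known. The counts of calls in each list stand beside 45.9%, 61.6% and 69.3% of all genes called under DZ, adenine and SAM, and nothing particular to a list is read from them. Of 14 carriers and uptake proteins, 3 were in the table (Fabp5, Scarb1 and Dgat1), with medians of 0.20 under DZ, 0.058 under adenine and 0.30 under SAM. DZ gave 2 calls, adenine 1 and SAM 3, all higher. Fabp5, which can carry retinoic acid to the receptor PPARδ, rose in all 3 treatments, by 1.02 under DZ, 0.48 under adenine and 1.10 under SAM (limma adjusted p = 9.24e-08, 1.1e-04 and 7.93e-09). Its means were 4.15 log2 CPM in CTL, 4.63 in Adenine and 5.25 in SAM. Scarb1, a receptor for lipoproteins and carotenoids, rose by 0.20 under DZ and 0.30 under SAM. Dgat1, which can esterify retinol, rose by 0.25 under SAM. Neither was called under adenine (0.058 for Scarb1, which plain read totals would call, and 0.027 for Dgat1).

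Of 25 retinol, retinal and retinoic acid enzymes, 10 were in the table, with medians of 0.10, 0.07 and -0.044 under DZ, adenine and SAM. DZ gave 5 calls, 4 of them higher, adenine gave 8, of which 5 were higher, and SAM gave 8, split evenly by direction. Rdh10, the main retinol dehydrogenase of the embryo, was at 4.54 log2 CPM in CTL and rose by 0.28 under DZ, 0.798 under adenine and 0.90 under SAM (limma adjusted p = 5.99e-05, 2.04e-10 and 3.23e-11). Rdh11, which reduces retinal, rose by 0.396 under adenine and by 1.16 under SAM. Its 0.11 under DZ was called only with plain read totals (limma adjusted p = 0.0267 as deposited). The deepest fall was that of Dhrs9, a retinol dehydrogenase of the same superfamily as Dhrs3, which stood at 5.36 ± 0.0373 (SD, n = 3) log2 CPM in CTL and at 2.77 ± 0.105 in SAM, a log2 fold change of -2.59 (limma adjusted p = 9.57e-15), against -0.32 under adenine and -0.17 under DZ, which was called only with voom or a separate model. Adh7, an alcohol dehydrogenase that oxidizes retinol, rose by 0.52 under DZ and fell by 1.05 under SAM and by 0.21 under adenine, where the call was lost without Adenine replicate 1 (-0.17) or 2 (-0.20) and with plain read totals (-0.15). Adh5 fell by 0.52 under adenine and 0.48 under SAM. Cyp1b1, a cytochrome that can oxidize retinol and retinal, rose by 0.75 under adenine and 1.27 under SAM. Its log2 fold change of 0.11 under DZ was called, but the call was lost with no variance trend, median centring, voom or a separate model, without DZ replicate 1 (0.11) or 3 (0.091), and without CTL replicate 1 (0.083) or 2 (0.12). Rdh13 rose by 0.26 under DZ and was not called under adenine (-0.13) or SAM (-0.087), but quantile normalization gave calls of -0.24 and -0.19. The retinoic acid hydroxylases Cyp26a1 and Cyp26c1 and the synthases Aldh1a2 and Aldh1a3 had no row.

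Of 18 RXR partners and coregulators, 17 were in the table, with medians of 0.047, 0.13 and 0.17 under DZ, adenine and SAM. DZ gave 3 calls (17.6% of the list), of which 1 was higher. Adenine gave 11 (64.7%), with 7 higher, and SAM gave 15 (88.2%), with 9 higher. Hdac3, the deacetylase of the corepressor complex, rose in all 3 treatments (0.31, 0.40 and 0.37 under DZ, adenine and SAM). Of the other subunits of that complex, Tbl1xr1 rose by 0.499 under adenine and 0.597 under SAM, its paralog Tbl1x fell by 0.27 and 0.56, and Gps2 fell by 0.41 under DZ and rose by 0.28 under SAM. Rxrb fell by 0.38 under adenine and 0.24 under SAM and was not called under DZ (0.013). Rxra went the other way, rising by 0.13 under adenine and 0.17 under SAM (limma adjusted p = 0.00815 and 7.57e-04), and was not called under DZ (0.12). The call under adenine was close to the threshold, and Rxra was not examined under other scalings or models. Nrip1, a ligand-dependent corepressor, fell by 0.25 under DZ, a call lost without DZ replicate 3 (-0.22) or CTL replicate 2 (-0.20).

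Of 24 genes known to be induced by retinoic acid in other cells, 7 had a row, with medians of -0.37, -0.23 and -0.06 under DZ, adenine and SAM. The calls went both ways. DZ gave 4, of which 3 were lower, adenine gave 5, of which 3 were lower, and SAM gave 3, of which 2 were lower. Tgm2, a transglutaminase, fell by 0.37, 1.03 and 0.998 under DZ, adenine and SAM (limma adjusted p = 1.41e-05, 4.08e-11 and 3.88e-11). Meis2, a homeobox factor of the limb and face, rose by 0.28 under DZ and fell by 0.79 under adenine and 1.29 under SAM (limma adjusted p = 5.83e-04, 3.65e-09 and 7.19e-12). Hoxa3 fell by 0.66 under DZ, rose by 0.39 under adenine and was not called under SAM (-0.06). Hoxa5 had -0.501 under DZ and 0.502 under SAM, and 0.296 under adenine, a call lost without Adenine replicate 1 (0.30) or 3 (0.22), without CTL replicate 2 (0.28) or 3 (0.26), and with median centring or quantile normalization. Bhlhe40 fell by 0.23 under adenine.

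**Figure D4:**
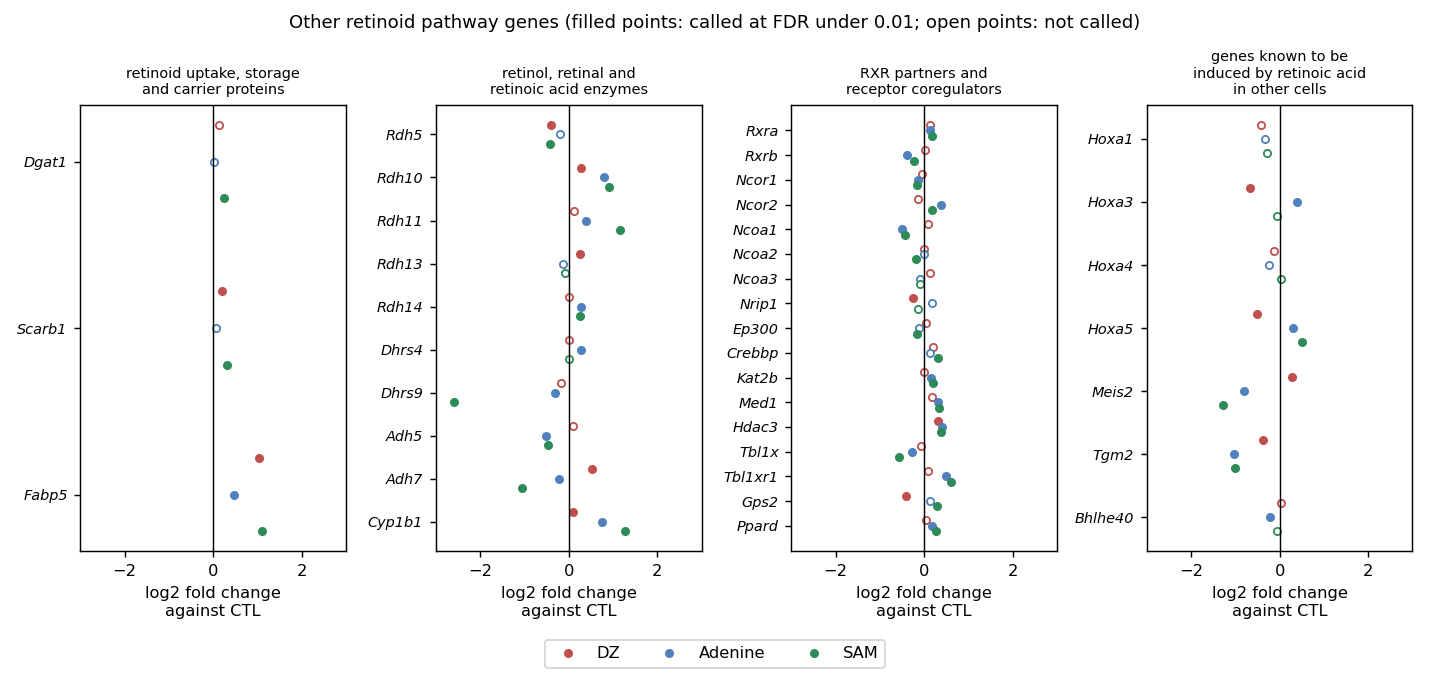
Log2 fold change against CTL of the other pathway genes in the table, in 4 lists, by treatment (filled points called at an FDR under 0.01, open points not called). Most points lie within 1 of 0, with Dhrs9 under SAM (-2.59) the farthest from it.

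The 5 genes outside the list whose values over the 12 libraries were most like those of Crabp1 were Tk1, Mcm3, Cx3cl1, Prdx4 and Ndc1, with Pearson r of 0.998, 0.998, 0.997, 0.996 and 0.996. The 12 libraries fall into 4 groups, so these values mainly describe the group means and carry no test. Tk1, a thymidine kinase of dividing cells, had log2 fold changes of 0.89, 2.36 and 3.00 under DZ, adenine and SAM, beside 1.17, 2.94 and 3.61 for Crabp1. Mcm3, a subunit of the replicative helicase, had 0.48, 1.28 and 1.57, and Cx3cl1, a chemokine, had 0.61, 1.62 and 1.85. Prdx4, a peroxiredoxin, had 0.42, 1.17 and 1.45, and Ndc1, a nuclear pore protein, had 0.43, 1.24 and 1.47.

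**Figure D5:**
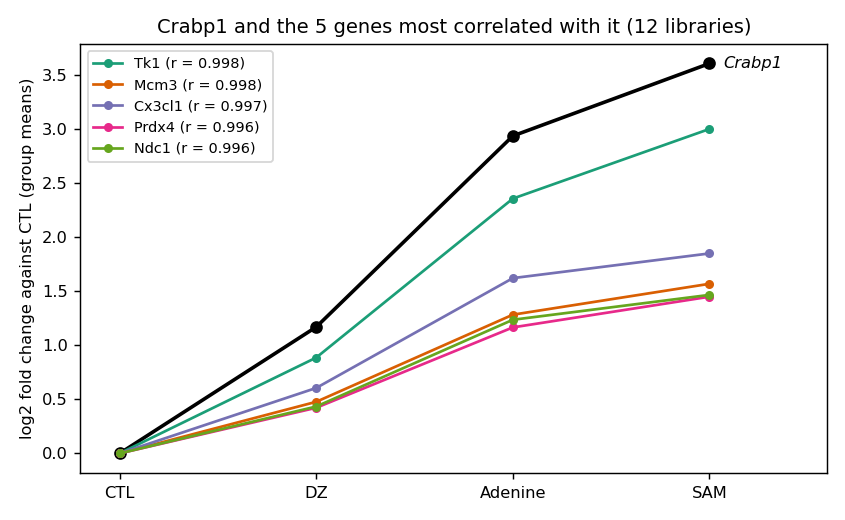
Log2 fold change of group means against CTL for Crabp1 (black) and the 5 genes with the highest Pearson r to it over the 12 libraries. All 6 lines rise from DZ to Adenine to SAM, with Crabp1 the steepest (3.61 under SAM).

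Markers of other cell types differed between groups as well. Of 6 neural markers, 4 were in the table (Tubb3, Map2, Nes and Sox2), with a summed level of 71.8 to 74.6 CPM in CTL, 96.6 to 100.8 in DZ, 169 to 177 in Adenine and 145 to 168 in SAM. Nes, the most abundant of these, had means of 5.45, 6.07, 6.81 and 6.83 log2 CPM in this order, and Map2 2.2, 2.71, 3.74 and 3.615. Tubb3 had means of 2.83, 2.76, 3.82 and 2.35, and Sox2 4.14, 4.15, 5.09 and 4.81, while Rbfox3 and Gfap had no row. Cd68, the only leukocyte marker in the table, was at 3.03 to 4 CPM in CTL, 2.74 to 3.79 in DZ, 10.8 to 12.4 in Adenine and 15.6 to 17.7 in SAM, and Ptprc had no row. Fabp4, the only adipocyte marker in the table, was at 1.84 to 2.3 CPM in CTL, 3.71 to 4.61 in DZ, 2.7 to 3.87 in Adenine and 5.15 to 5.94 in SAM. The fibroblast marker Pdgfra had means of 3.19, 3.65, 5.08 and 5.73 log2 CPM in CTL, DZ, Adenine and SAM. Their part in the values of Crabp1 was not tested. Exons of Crabp2, Rara and Rarg overlap noncoding genes on the opposite strand that have no row in the table. The library kit keeps strand, but whether the counting used it is not given in the sources used here.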

How the data were processed

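RNA of 12 dishes, 3 in each of the groups CTL, DZ, Adenine and SAM, was sequenced after selection of polyadenylated RNA. According to the study's methods and the submitters' processing notes, the authors trimmed reads with Trimmomatic, aligned them to GRCm39 with HISAT2, quantified transcripts with StringTie and used edgeR. The deposited values are log2 CPM on normalized library sizes, for genes of at least 1 CPM in all samples. Whole reads were recovered from them with a prior count of 2: 100% of 151092 values came within 0.01 of a whole read. StringTie reads are estimates from coverage.

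The log2 values were fitted with limma 3.58.1 in R 4.3.3 (lmFit, contrasts, eBayes with a variance trend, all 12 libraries in 1 model), adjusted by Benjamini-Hochberg over all 12591 genes, and called at an FDR under 0.01. The model was tested on simulated data. Confidence intervals are 95% intervals of this model. RPKM values were computed from the recovered reads, the normalized library sizes and the Ensembl canonical transcript length. Symbols and positions are those of GENCODE vM39 (12575 of 12591 genes matched), and promoters are from RefSeq. The members and gene lists were chosen with earlier results of these data known. Named were every member with a row, up to 3 called genes per list and comparison with CTL by smallest adjusted p, and the 5 genes most correlated with Crabp1. Absent enzymes, absent markers and Rxra were named in addition. Libraries were grouped by the treatment in their labels. The replicate numbers were not used in the fit. Protein sequences were not used here, and 1 gene of the lists is not reported here. Alternatives in scaling, filtering, pseudocount, model, threshold and libraries are given in the closing section. Python 3.11.15 with pandas 2.3.3, numpy 2.4.6 and matplotlib 3.10.9 was used for tables and plots.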

Additional observations from a re-analysis of the deposited data

How the results depend on the processing

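The model was refitted with no variance trend, with robust empirical Bayes, with genes of a mean under 3 log2 CPM left out, with median centring, quantile normalization, plain read totals, a pseudocount of 1 CPM, voom on recovered reads, an FDR of 0.05, a required log2 fold change of 0.5, a separate model of the 2 groups, a replicate block, and leaving out each library. SAM counts here include untested Crabp1, so their stability is no finding. The main fit gave 5 against CTL, 2 against Adenine and 4 against DZ (otherwise 4, 1 and 3). Of 72 recomputed counts, 67 stayed within 1.5 times the main fit. Exceptions, all for SAM, were 3 against CTL with quantile normalization and 4 against Adenine at an FDR of 0.05. The rest were 2, 0 and 1 in the order above with a required log2 fold change of 0.5. Calls lost with that requirement included Crabp2 for SAM against DZ (-0.61) and Hoxa3 under DZ (-0.66). Without 1 library counts were 2 to 3 under DZ, 3 to 4 under adenine, 4 to 5 under SAM, 2 to 3 for SAM against Adenine, 3 for DZ against Adenine and 4 to 5 for SAM against DZ.

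The sign turned for small values. With plain read totals Rarg had 0.0021 under DZ, 0.036 under adenine, 0.0242 under SAM, -0.033 for DZ against Adenine and 0.022 for SAM against DZ, and Dhrs3 had -0.029 for DZ against Adenine. With quantile normalization Rarg had 0.036 under adenine, 0.00196 under SAM, -0.039 for DZ against Adenine and 0.0049 for SAM against DZ. Cyp26b1 under SAM had -0.031 with median centring and -0.039 with quantile normalization. With plain read totals Rdh13 (0.035), Hoxa3 (0.062) and Bhlhe40 (0.068) turned under SAM. With median centring Dgat1 (-0.024) turned under adenine and Rxrb (-0.0011) under DZ, and with quantile normalization Dgat1 (-0.029) under adenine. Without 1 library the log2 value ranged from -0.0015 to 0.0068 for Rarg and from -0.074 to 0.065 for Dhrs3 (DZ against Adenine). That of Cyp26b1 ranged from -0.33 to 0.045 under adenine, from -0.041 to 0.059 under SAM and from -0.037 to 0.33 for SAM against Adenine. That of Dgat1 ranged from -0.021 to 0.078 under adenine. Calls were gained under adenine for Rdh13 with no variance trend (-0.13) and median centring (-0.18), for Gps2 (0.19) and Nrip1 (0.24) with plain read totals, and for Nrip1 without CTL replicate 2 (0.23). They were gained under DZ for Adh5 with plain read totals (0.13) and a separate model (0.10), for Tbl1x with median centring (-0.096) and a separate model (-0.082), and for Dgat1 without CTL replicate 1 (0.19). Under SAM they were gained for Nrip1 with quantile normalization (-0.23) and Bhlhe40 with median centring (-0.094). Rarg was called without SAM replicate 3 against Adenine (-0.087) and DZ (-0.09), and against DZ with median centring (-0.099). The causes were not tested.

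The values did not show that the replicate numbers pair the dishes. Between libraries with the same number, Pearson r of the deviations from group means, taken across genes, lay between -0.14 and 0.18, and 4 of 12 libraries correlated best with a library of their own number. With the replicate block 2 members in place of 3 were called under DZ, Rara (-0.16) not among them. No other call of the named genes changed, with Rxra not examined. With genes under a mean of 3 log2 CPM left out, Cyp26b1 could not be fitted. With 118 to 222 reads per library, Cyp26b1 is the least precisely measured member. With 3 dishes per group, small changes of the others rest on few values.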
